A study of Mus musculus with 9 samples.

Results

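Mouse bone marrow stromal cells with osteogenic potential were compared with untreated stromal cells with adipogenic potential, in 3 libraries of each kind. These are 6 of the 9 libraries of the series. The other 3 came from adipogenic progenitors given IFNγ and were not compared here. Libraries were assigned by their titles (O for osteogenic, A for adipogenic, each numbered 4, 5 and 6), and all genes with enough counts entered the comparison, 14564 of the 24186 in the table. All cells came from the marrow of the femora and tibiae of adult C57Bl/6 mice with an irtTA-GBD*-TAg transgene. In its presence, dexamethasone and doxycycline together switch on large T antigen, so that the cells of both groups were conditionally immortalised in culture. Clones were then derived, and both drugs were withheld for 3 days before RNA was isolated. The design text calls the 3 libraries of a kind biological replicates. Whether each stems from its own clone or mouse is not stated, so p-values measure the spread between these libraries only.

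Poly(A) RNA was read as single 75-base reads, and the libraries held 27440089 to 39251602 counts. Levels of genes are given in CPM (counts-per-million values, scaled by TMM). At these totals, before TMM scaling, 3 reads, the limit set by an observed 0, correspond to 0.0764 to 0.109 CPM. These floors cover counting error only. The 10 most abundant genes took 10.7% to 13.3% of the counts of the osteogenic libraries and 5.31% to 6.23% of those of the adipogenic ones. Pairs of osteogenic libraries correlated at 0.976 to 0.98 in log2 CPM across genes, and pairs of adipogenic libraries at 0.955 to 0.961. The adipogenic libraries were also the more variable by gene, with a median SD of log2(CPM + 1) of 0.258 against 0.172. Adipogenic library 4 stood apart in endoplasmic reticulum chaperones and stress factors, being the highest of the 6 libraries in 14 of 15 of them. The chaperone Hspa5 reached 6966, 828 and 932 CPM in adipogenic libraries 4, 5 and 6 and 1266, 1305 and 1359 in osteogenic libraries 4, 5 and 6. Markers of other cells summed to at most 62.3 CPM a library in each of 7 lists. Macrophage markers summed to 12.6 to 31.0 CPM in adipogenic and 9.29 to 12.0 in osteogenic libraries, and blood cell markers to 2.65 to 5.01 and 1.06 to 2.54. Sums of endothelial markers were 10.5 to 29.8 and 17.2 to 62.3 CPM, of neural and Schwann cell markers 7.81 to 24.8 and 28.3 to 39.1, and of epithelial markers 0.597 to 2.18 and 2.67 to 5.56. Osteoclast markers summed to 2.05 to 16.7 and 1.38 to 15.8 CPM and skeletal muscle markers to 3.95 to 18.3 and 4.7 to 29.4. The part of these cells in the results was not tested. The pan-leukocyte gene Ptprc had at most 0.0994 CPM, and the endothelial genes Pecam1 and Cdh5 at most 0.169 and 0.0497. Of the 3 endothelial markers tested 1 passed and was lower, the VEGF receptor Kdr (33.33%, against 2.24% of all genes). It was at 2.37, 1.34 and 1.42 CPM in osteogenic and 17.3, 8.56 and 9.82 in adipogenic libraries (log2 fold change −2.79 ± 0.39, adjusted p = 0.023). The VEGF receptor Flt1 was at 41.4, 15.4 and 60.7 and 12.1, 1.75 and 0.224 CPM, higher in all osteogenic libraries without passing (log2 3.06 ± 1.27, adjusted p = 0.209).

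Stromal cells of the marrow include progenitors that can form bone or fat. The transcription factor Runx2 and, downstream of it, Sp7 (osterix) are required for osteoblasts to form, and these cells then lay down a matrix of type I collagen that is mineralised with the help of alkaline phosphatase. Pparg and Cebpa drive the formation of fat cells, which take up, make and store lipid. Both programmes are known to oppose each other in these progenitors. Interferons act on most cell types through STAT proteins and IRF factors, which switch on a shared set of antiviral genes and genes for antigen presentation by MHC class I.

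With edgeR's quasi-likelihood test and Benjamini-Hochberg adjustment over all genes, 523 of 14564 genes passed an adjusted p of 0.05, which is 3.59%. Of these, 197 were higher in the osteogenic libraries (1.35% of genes tested) and 326 were lower (2.24%). More than 2-fold differences made up 144 of the higher (0.989%) and 256 of the lower (1.76%). The median log2 fold change of all genes, osteogenic minus adipogenic, was −0.01. Higher genes made up 37.7% of the calls here and 25.8% of the 628 calls made when libraries were scaled by their totals alone, which moved the median of all genes to −0.11. Groups of 3 libraries did not overlap in 2208 genes that were higher (15.2%) and 2324 that were lower (16%). An exact permutation test of 3 against 3 cannot go below 0.1, so calls rest on the fit across all genes.

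The number of calls depended on single libraries. Without adipogenic library 6, 168 genes passed. Without osteogenic library 4, 5 or 6, the numbers were 25, 46 and 54. All 523 calls kept their direction in each of these fits and in the fits without adipogenic library 4 or 5. At an unadjusted p under 0.05 there were 3477 genes (23.9%). DESeq2, which gave an adjusted p for 15805 genes, called 909 higher (5.75%) and 1260 lower (7.97%). For the genes named below, the libraries whose removal took the adjusted p above 0.05 are given with that p. The other settings named for single genes are 3 scalings, no filter on low counts, DESeq2, limma-voom and a fit of all 9 libraries.

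**Figure D1:**
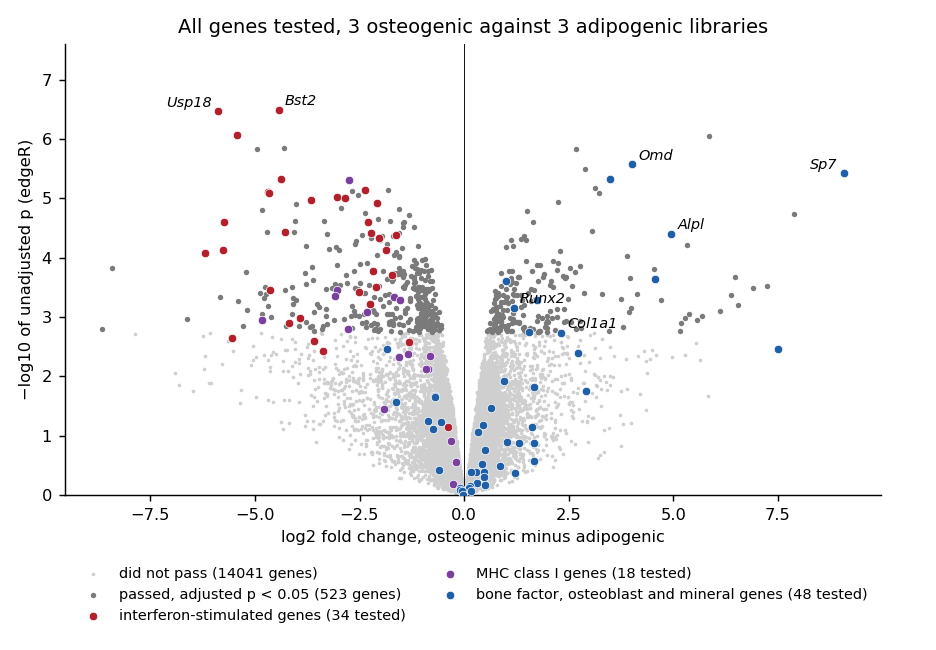
Each point is 1 of 14564 genes, with the log2 fold change (osteogenic minus adipogenic) on the horizontal axis and −log10 of the unadjusted edgeR p on the vertical axis. The 34 interferon-stimulated genes tested all lie left of 0, and Sp7 lies farthest to the right.

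The factors that set up bone formation were higher in the osteogenic libraries where they passed. Of 21 tested factors 5 rose (23.81%, against 1.35% of all genes) and 0 fell. The rises included both master regulators, Runx2 and Sp7, and the activators Dlx5 and Runx3. The median of the list was 0.49 on the log2 scale, with 17 of 21 values above 0. None of the 5 listed factors that restrain osteoblasts passed.

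Sp7 had the largest rise of all genes that passed. It reached 0.084, 0.31 and 0.149 CPM in the adipogenic libraries, which is 20 reads in all 3 together, and 129, 119 and 49.8 CPM in the osteogenic ones. Adipogenic cells thus held Sp7 close to the floor, and the lowest osteogenic library was 161 times the highest adipogenic one. In RNA from whole cultures, fewer cells that express a gene and less RNA per cell cannot be told apart. The pooled ratio was 538 (95% exact interval 348 to 881, counting error only), and the log2 fold change was 9.08 ± 0.62 (SE, adjusted p = 0.00544). Within the osteogenic group, library 6 had less Sp7 than libraries 4 and 5.

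Runx2 was present in both groups, at 57.4, 79.3 and 49.1 CPM in the adipogenic and 142, 149 and 130.3 CPM in the osteogenic libraries. The lowest osteogenic library lay above the highest adipogenic one, and the difference was 2.27-fold (log2 1.18 ± 0.20, adjusted p = 0.0336). Dlx5, a homeobox gene that acts upstream of Sp7, was at 3.44, 2.62 and 3.55 CPM in adipogenic and 44.8, 35.5 and 27.1 CPM in osteogenic libraries. It rose 11.2-fold (log2 3.48 ± 0.25, adjusted p = 0.00544), and its groups were well separated.

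Runx3, a relative of Runx2 with a part in bone and cartilage, rose 2-fold with narrow spreads, from 33.5 ± 2.5 (SD, n = 3) to 67.2 ± 8.5 CPM (log2 1.00 ± 0.14, adjusted p = 0.0225). Factors that differed by less than the test could show included Atf4, which supports the synthesis of bone matrix (389.7 ± 125 and 471 ± 145 CPM, adjusted p = 0.631), and Snai2 (92.7 ± 39.6 and 130.5 ± 12.1, 0.397). The calls of Sp7 and Dlx5 held with each of the 6 libraries left out in turn. Leaving out a library took the adjusted p past 0.05 for Runx2 without adipogenic library 4 or 6 or any 1 osteogenic library (adjusted p = 0.0633 to 0.127) and Runx3 without adipogenic library 6 or any 1 osteogenic library (0.0656 to 0.0954).

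Genes of the bone matrix and of mineral deposition followed in part. Of 27 tested, 4 rose (14.81%, against 1.35% of all genes) and 0 fell, with a median of 0.50 and 19 values above 0. The 4 were Alpl, Omd, Pth1r and Col1a2. Late osteoblast products did not pass with edgeR.

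Alpl, the alkaline phosphatase that frees phosphate for mineral, was at 5.41, 9.46 and 17.8 CPM in the adipogenic libraries and 391, 363 and 256 CPM in the osteogenic ones. The lowest osteogenic library was 14.4 times the highest adipogenic one, and the fitted difference was 30.8-fold (log2 4.95 ± 0.50, adjusted p = 0.0109). Omd, osteomodulin, a small proteoglycan of mineralised matrix, was at 6.13, 9.77 and 8.8 CPM and 101, 146 and 154 CPM, in the same order of groups. It rose 16.2-fold (log2 4.02 ± 0.26, adjusted p = 0.00489). Pth1r, the receptor for parathyroid hormone, rose 23.7-fold, from 0.56, 0.366 and 0.944 to 23.1, 15.3 and 6.39 CPM (log2 4.57 ± 0.62, adjusted p = 0.022). As with Sp7, the lowest of its osteogenic values was that of library 6.

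Both chains of type I collagen were abundant in both groups. Col1a1 stood at 1043 RPKM (CPM per kilobase of exon) in adipogenic and 5180.1 in osteogenic libraries, and Col1a2 at 589.8 and 1961. By library, Col1a2 was at 9187, 6346 and 5954 CPM in adipogenic and 19272, 24260.0 and 27926 in osteogenic cells, a 3.33-fold difference (log2 1.73 ± 0.27, adjusted p = 0.029). Col1a1 was at 8356, 9108 and 3076 CPM and 30467, 28643 and 42881 CPM, with no overlap. Its log2 fold change was 2.31 ± 0.46, which missed the threshold (adjusted p = 0.0508) while the adipogenic libraries spread 2.96-fold from lowest to highest. It passed with DESeq2 (adjusted p = 1.58e-06) and with limma-voom (0.0483).

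Ibsp, bone sialoprotein, was near the floor in the adipogenic libraries (0.28, 0.422 and 0.249 CPM) and spread widely in the osteogenic ones (34.7, 137 and 1.58 CPM). Its log2 fold change of 7.50 ± 1.66 did not pass (adjusted p = 0.0637), although the groups did not overlap. Ibsp passed with DESeq2 (adjusted p = 2.41e-06) and not with limma-voom (0.304). It also passed with all 9 libraries in the fit (0.0279), which took adipogenic libraries of equal number as independent although they deviated together. Bglap, osteocalcin, the late osteoblast hormone, was low in both groups, at 0.7, 0.929 and 0.199 and 3.54, 0.821 and 1.28 CPM (adjusted p = 0.252). Spp1, osteopontin, was abundant in both, at 211, 989 and 1349.6 and 1216, 1439 and 187 CPM, and the libraries of the groups overlapped (adjusted p = 0.933). Sparc, osteonectin, which binds collagen and mineral, averaged 3476 ± 1132 and 6714 ± 879 CPM without overlap (log2 0.95 ± 0.28, adjusted p = 0.108). The call of Omd held with each of the 6 libraries left out in turn. The threshold was no longer met for Alpl without osteogenic library 4 or 5 (adjusted p = 0.0558 to 0.0691), Pth1r without adipogenic library 6 or osteogenic library 4 or 5 (0.053 to 0.0873) and Col1a2 without adipogenic library 5 or 6 or any 1 osteogenic library (0.0594 to 0.118).

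**Figure D2:**
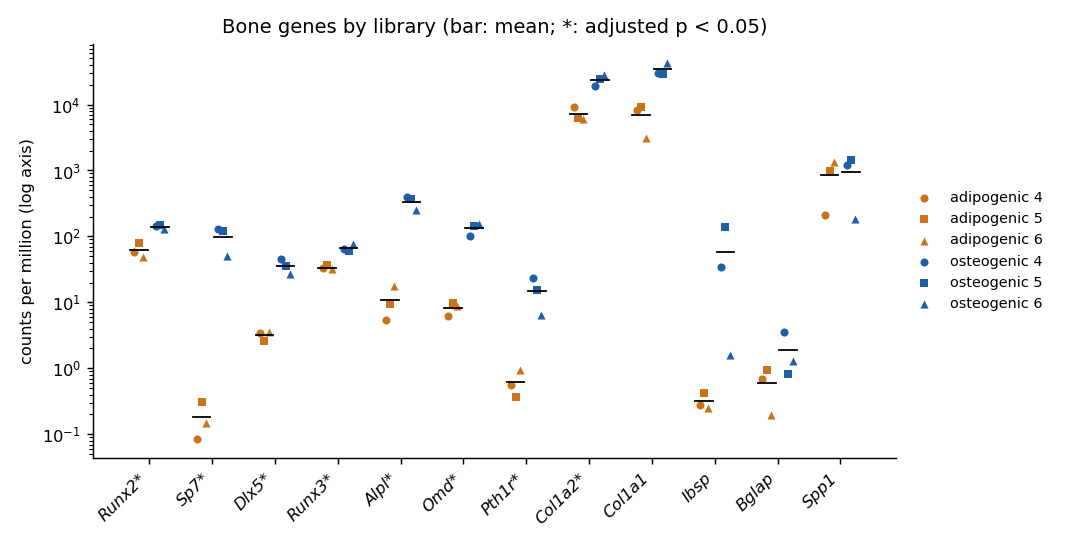
CPM of 12 bone genes in each library, on a log axis, with adipogenic libraries in orange, osteogenic ones in blue, a bar at the mean of 3 and an asterisk where the adjusted p was below 0.05. At the closest libraries Sp7, Alpl, Omd and Pth1r still differ 161, 14.4, 10.3 and 6.77-fold, whereas Spp1 overlaps and Bglap does not exceed 3.54 CPM.

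Among collagen chains, 1 of 28 rose and 1 fell (3.57% each, against 1.35% and 2.24% of all genes), and the median was −0.15. Of 8 fibrillar chains 6 were higher in every osteogenic library (against 15.2% of all genes), and of these Col1a2 passed. The other two, Col5a3 and Col24a1, named after their values were seen, overlapped between the groups (log2 −2.02 ± 1.01 and −1.22 ± 0.64, adjusted p = 0.281 and 0.30). Col5a1 averaged 1760.4 ± 304 and 4527 ± 1359.5 CPM (adjusted p = 0.0521), Col5a2 2732 ± 811 and 5959 ± 472 (0.0689), and Col12a1, which is not a fibrillar chain but sits on the fibril surface, 1105 ± 475 and 4815 ± 2414 (0.068). Col4a5, a basement membrane chain, fell 3.26-fold, from 418, 208 and 353 CPM to 124, 74.3 and 102 CPM (log2 −1.71 ± 0.31, adjusted p = 0.0437). With DESeq2, 10 collagen chains were higher and 5 lower (against 5.75% and 7.97% of all genes).

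Enzymes that modify collagen showed 2 rises and 1 fall among 23 (8.7% and 4.35%, against 1.35% and 2.24% of all genes). Fkbp10, a prolyl isomerase needed to fold and crosslink type I collagen, was at 298, 288 and 319 CPM in adipogenic and 759, 705 and 865 CPM in osteogenic libraries, which is 2.57-fold (log2 1.36 ± 0.14, adjusted p = 0.0114). P4ha1, a subunit of prolyl 4-hydroxylase, rose 1.93-fold, from 159 ± 23.9 to 306 ± 21 CPM (adjusted p = 0.0296). Loxl4, a lysyl oxidase that crosslinks collagen, fell 2.24-fold, from 139 ± 23.1 to 62 ± 1.54 CPM (adjusted p = 0.0207). The collagen chaperone Serpinh1 averaged 1452 ± 578 and 2344 ± 276 CPM (adjusted p = 0.222).

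The secretory pathway held 2 rises among 26 tested genes (7.69%, against 1.35% of all genes), both in vesicle traffic. Sec23a, a coat protein of vesicles that carry procollagen out of the endoplasmic reticulum, was at 93, 87.2 and 98.2 CPM and 202, 188 and 217 CPM. It rose 2.18-fold with little spread in either group (log2 1.12 ± 0.12, adjusted p = 0.0114). Kdelr2, which returns chaperones to the reticulum, rose 1.63-fold (log2 0.71 ± 0.13, adjusted p = 0.0415). Creb3l1, a factor that turns on type I collagen in osteoblasts, averaged 152 ± 37.9 and 289 ± 30.1 CPM without overlap (adjusted p = 0.0699). None of the 15 chaperones and stress factors passed, and adipogenic library 4, where 14 of them peaked, was part of that comparison. The call was missed for Col4a5 without adipogenic library 4 or 6 or any 1 osteogenic library (adjusted p = 0.0655 to 0.148), Fkbp10, Loxl4 and Sec23a without any 1 osteogenic library (0.0543 to 0.0935) and P4ha1 and Kdelr2 without adipogenic library 5 or 6 or any 1 osteogenic library (0.0584 to 0.145). Among the other scalings, filter, tools and the fit of all 9 libraries, the threshold was missed for Kdelr2 with no filter on low counts (0.0536).

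The small leucine-rich proteoglycans, which bind collagen fibrils and growth factors, had a median log2 fold change of 3.12, and all 8 tested values were above 0. Of the 8, 3 rose (37.5%, against 1.35% of all genes): Omd, Ogn and Ecm2. Ogn, osteoglycin, was at 196, 212 and 239 CPM in adipogenic and 994, 1379 and 661 CPM in osteogenic libraries, 4.69-fold higher (log2 2.23 ± 0.29, adjusted p = 0.0207). Ecm2 rose from 1.83 ± 0.606 to 6.24 ± 1.36 CPM (adjusted p = 0.0497). Aspn and Fmod, which regulate fibril assembly and mineral, had differences of the size of Omd but a wide spread among adipogenic libraries. Aspn was at 3.33, 29.4 and 2.24 and 219.6, 239 and 629.7 CPM (adjusted p = 0.0737) and Fmod at 40.9, 2.59 and 8.08 and 534, 205 and 384 CPM (adjusted p = 0.075). Bgn, biglycan, averaged 3572 ± 904 and 3744 ± 502 CPM (adjusted p = 0.893).

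Among 23 matricellular and elastic fibre genes, 3 rose (13.04%, against 1.35% of all genes) and 0 fell. Tnn, tenascin W, a matrix protein of bone and of stem cell niches, came after Sp7 in the 10 rises that the rule names by size. It was at 1.09, 1.3 and 1.49 CPM in adipogenic and 365, 457 and 101 CPM in osteogenic libraries (log2 7.89 ± 0.70, adjusted p = 0.00797), so that the lowest osteogenic library was still far above every adipogenic one. Thbs3, a thrombospondin, rose 4.64-fold (log2 2.21 ± 0.37, adjusted p = 0.0341), and Emilin1, which sits at elastic fibres and binds TGF-β precursor, 3.35-fold (log2 1.74 ± 0.27, adjusted p = 0.029). Thbs1, which can activate TGF-β, averaged 5850.2 ± 1654 and 12044 ± 2012 CPM without overlap (adjusted p = 0.0967), and Postn, periostin, 778 ± 800.0 and 2919.6 ± 949 CPM (adjusted p = 0.206). Of 17 matrix proteases and inhibitors, 1 rose (5.88%, against 1.35% of all genes). This was the aggrecan-cleaving Adamts4, which rose 3.37-fold, from 14.9 ± 2.87 to 50.2 ± 12.4 CPM (log2 1.75 ± 0.24, adjusted p = 0.0224). Leaving out a library took the adjusted p past 0.05 for Ogn and Adamts4 without adipogenic library 6 or osteogenic library 4 or 5 (adjusted p = 0.0579 to 0.095), Ecm2 without any 1 adipogenic library or any 1 osteogenic library (0.0535 to 0.163) and Tnn without osteogenic library 4 (0.0514). The call was also lost for Thbs3 and Emilin1 without adipogenic library 5 or 6 or any 1 osteogenic library (adjusted p = 0.0518 to 0.118). A change of scaling, filter, tool or set of libraries ended the call, with the adjusted p, for Ecm2 with scaling by library totals alone (0.0559) and no filter on low counts (0.0516) and Adamts4 with all 9 libraries in the fit (0.168).

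Signalling pathways held few calls, mostly of receptors and targets. Over all genes, 1.35% rose and 2.24% fell. In the Wnt pathway, 1 of 45 passed (2.22%): the receptor Ror2, which binds Wnt5a and supports osteoblast formation. It was at 22.1, 23.7 and 16.9 CPM and 60.2, 57.7 and 57.7 CPM and rose 2.8-fold with no overlap (log2 1.49 ± 0.16, adjusted p = 0.0114). Wnt10b, a ligand that favours bone over fat, averaged 44 ± 19.8 and 105 ± 16.9 CPM without overlap (adjusted p = 0.115). Lef1, a nuclear effector, averaged 2.71 ± 1.6 and 17.8 ± 10.2 CPM (log2 2.72 ± 0.62, adjusted p = 0.0695).

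BMP signals drive bone formation through SMAD proteins, and 1 of 31 tested members passed (3.23%, against 1.35% of all genes that rose). This was the target gene Id2, which rose 3.78-fold, from 8.32, 6.05 and 7.13 CPM to 25.7, 35.3 and 20.3 CPM (log2 1.92 ± 0.26, adjusted p = 0.0209). The target Id3 and the feedback inhibitor Smad6 were also higher in all osteogenic libraries, at 452 ± 37 against 199 ± 76.7 CPM and 80.6 ± 13 against 24.9 ± 11.4 CPM, without passing (adjusted p = 0.072 and 0.0526). The BMP antagonist Grem1 was at 375, 56.1 and 133 CPM in adipogenic and 16.5, 3.62 and 30.8 CPM in osteogenic libraries. No library overlapped, but the adipogenic libraries spread 6.69-fold and the osteogenic ones 8.51-fold, and the adjusted p was 0.105.

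In the TGF-β pathway 1 of 22 passed (4.55%, against 1.35% of all genes that rose). This was the ligand Tgfb1, at 49.9, 35.6 and 58.8 and 90.7, 113 and 113 CPM (log2 1.14 ± 0.21, adjusted p = 0.0438). The receptor Tgfbr2 averaged 418 ± 98.8 and 197 ± 35.3 CPM, lower in all osteogenic libraries (adjusted p = 0.0564). Of 9 hedgehog genes, 2 receptors rose (22.22%, against 1.35% of all genes). Ptch1, the hedgehog receptor that is also a target of the pathway, rose 2.7-fold, from 23.6 ± 2.08 to 63.8 ± 24 CPM (adjusted p = 0.0469), and the co-receptor Boc 5.83-fold, from 9.85 ± 5.58 to 57.4 ± 20.1 CPM (adjusted p = 0.0427).

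In the FGF pathway 2 of 16 rose and 1 fell (12.5% and 6.25%, against 1.35% and 2.24% of all genes). Fgfr2, a receptor needed for osteoblast growth, was at 116, 96.1 and 59.5 CPM in adipogenic and 346, 324 and 328 CPM in osteogenic libraries, 3.67-fold higher (log2 1.88 ± 0.25, adjusted p = 0.0214). Fgfr3, which restrains the growth of cartilage, rose 3.94-fold (log2 1.98 ± 0.35, adjusted p = 0.0391). Spry4, a feedback inhibitor of receptor tyrosine kinases, fell 5.47-fold, from 7.06, 11.8 and 22.7 to 2.22, 2.84 and 2.53 CPM (log2 −2.45 ± 0.45, adjusted p = 0.0437). Fgfr1 averaged 239 ± 27.3 and 313 ± 63.1 CPM (adjusted p = 0.259). With edgeR 0 of 13 Notch genes and 0 of 12 genes of the IGF axis passed. At an unadjusted p under 0.05 these numbers were 3 and 4 (against 23.9% of all genes), and with DESeq2 3 and 4 (against 13.7% of all genes). The threshold was no longer met for Ror2 and Fgfr2 without any 1 osteogenic library (adjusted p = 0.0617 to 0.0935), Id2 without adipogenic library 6 or any 1 osteogenic library (0.0513 to 0.0922) and Tgfb1 and Fgfr3 without adipogenic library 4 or 6 or any 1 osteogenic library (0.0607 to 0.147). The call was also lost for Ptch1 without any 1 adipogenic library or any 1 osteogenic library (adjusted p = 0.0738 to 0.122) and Boc and Spry4 without adipogenic library 5 or 6 or any 1 osteogenic library (0.0617 to 0.158). A call also ended, with this adjusted p, for Id2 with all 9 libraries in the fit (0.0706), Tgfb1 with scaling by library totals alone (0.0506) and all 9 libraries in the fit (0.05), Ptch1 with limma-voom (0.0518), Boc with all 9 libraries in the fit (0.0752), and Spry4 with limma-voom (0.0748).

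Factors of fat formation had a median log2 fold change of −0.65, with 22 of 29 values below 0, but few passed. Of the 29, 1 rose and 3 fell (3.45% and 10.34%, against 1.35% and 2.24% of all genes). The master regulators were not among them. Pparg was at 19.9, 27.2 and 60.3 CPM in adipogenic and 13.1, 9.52 and 4.73 CPM in osteogenic libraries. All osteogenic values lay below all adipogenic ones, and the fitted difference was 3.93-fold (log2 −1.98 ± 0.54), which did not pass with edgeR (adjusted p = 0.0971) and passed with DESeq2 (0.00198). Cebpa was at 20.8, 10.7 and 60.6 and 27.1, 36.1 and 20.7 CPM, with the groups overlapping (log2 −0.14 ± 0.61, adjusted p = 0.916).

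Ppargc1a, a coactivator of Pparg that drives mitochondrial genes, was low in both groups and fell 5.61-fold, from 2.27, 1.97 and 2.36 to 0.3, 0.336 and 0.528 CPM (log2 −2.49 ± 0.35, adjusted p = 0.0227). Klf5, an early factor that acts on the Pparg promoter, fell 2.58-fold, from 14.8, 20.7 and 14.6 to 5.36, 6.72 and 7.34 CPM (log2 −1.36 ± 0.23, adjusted p = 0.0336). Klf9, a related early factor, fell 2.5-fold, from 92.6, 64.6 and 99.8 to 25.2, 34.6 and 43 CPM (log2 −1.32 ± 0.25, adjusted p = 0.0481). In each of these, no library of a group reached the range of the other. The factor that rose was Zfp467, a zinc finger protein known to favour fat over bone in marrow cells. It was at 4.43, 4.17 and 5.47 CPM in adipogenic and 15.3, 18.9 and 13.3 CPM in osteogenic libraries (log2 1.75 ± 0.22, adjusted p = 0.0196).

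Genes that fat cells use to handle lipid had a median of −0.38. They showed 1 rise and 2 falls among 34 (2.94% and 5.88%, against 1.35% and 2.24% of all genes). The largest differences did not pass with edgeR. Lpl, which frees fatty acids from lipoproteins, was at 126, 12.2 and 289.6 CPM in adipogenic and 3.54, 3.51 and 2.11 CPM in osteogenic libraries. Adipogenic library 5 was far below libraries 4 and 6, and the difference of 46.9-fold came with an adjusted p of 0.0547. Plin4, a lipid droplet coat protein, was at 52.7, 213 and 394 and 7.49, 22.3 and 4.17 CPM (log2 −4.29 ± 0.96, adjusted p = 0.0654). Lpl and Plin4 passed with DESeq2 (adjusted p = 9.62e-06 and 3.4e-07) and not with limma-voom (0.174 and 0.0716). Fabp4, the fatty acid binding protein of fat cells, was at 21.4, 23.9 and 233 and 33.6, 20.9 and 8.95 CPM, and its mean in the adipogenic group was set by library 6 (adjusted p = 0.274). The lipolysis gene Mgll was higher in all osteogenic libraries without passing (log2 2.73 ± 0.59, adjusted p = 0.0613). Its levels were 0.308, 0.282 and 1.09 CPM in adipogenic and 3.96, 4.14 and 3.17 CPM in osteogenic libraries. The hormone gene Adipoq had 11 reads in the adipogenic libraries and 1 in the osteogenic ones and was not tested.

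The lipid genes that passed were lower ones of synthesis and breakdown and a binding protein that was higher. Scd2, a desaturase of fatty acid synthesis, fell 2.91-fold, from 1639.9, 1251 and 2072 to 377, 691 and 636 CPM (log2 −1.54 ± 0.30, adjusted p = 0.0496). Abhd5, the activator of triglyceride breakdown, fell 1.7-fold, from 50.9 ± 6.99 to 29.8 ± 2.73 CPM (adjusted p = 0.0497). Fabp5, a fatty acid binding protein of many tissues, rose 6.25-fold, from 55.8, 37 and 28.8 to 307, 168 and 285 CPM (log2 2.64 ± 0.34, adjusted p = 0.0207). Fasn, fatty acid synthase, averaged 457 ± 183 and 258 ± 7.86 CPM without overlap (adjusted p = 0.149). With DESeq2, 3 lipid genes were higher and 7 lower (against 5.75% and 7.97% of all genes). The call was missed for Ppargc1a without adipogenic library 6 or any 1 osteogenic library (adjusted p = 0.0644 to 0.111), Klf5 without adipogenic library 5 or 6 or any 1 osteogenic library (0.0506 to 0.13) and Klf9 and Scd2 without adipogenic library 4 or 6 or any 1 osteogenic library (0.0747 to 0.161). The call was also lost for Zfp467 without any 1 osteogenic library (adjusted p = 0.0619 to 0.0875), Abhd5 without any 1 adipogenic library or any 1 osteogenic library (0.0644 to 0.179) and Fabp5 without adipogenic library 6 or osteogenic library 4 or 6 (0.0535 to 0.0854). Among the other scalings, filter, tools and the fit of all 9 libraries, the threshold was missed for Scd2 with upper-quartile scaling (0.05) and limma-voom (0.0501) and Abhd5 with upper-quartile scaling (0.0505), no filter on low counts (0.0569) and limma-voom (0.0549).

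**Figure D3:**
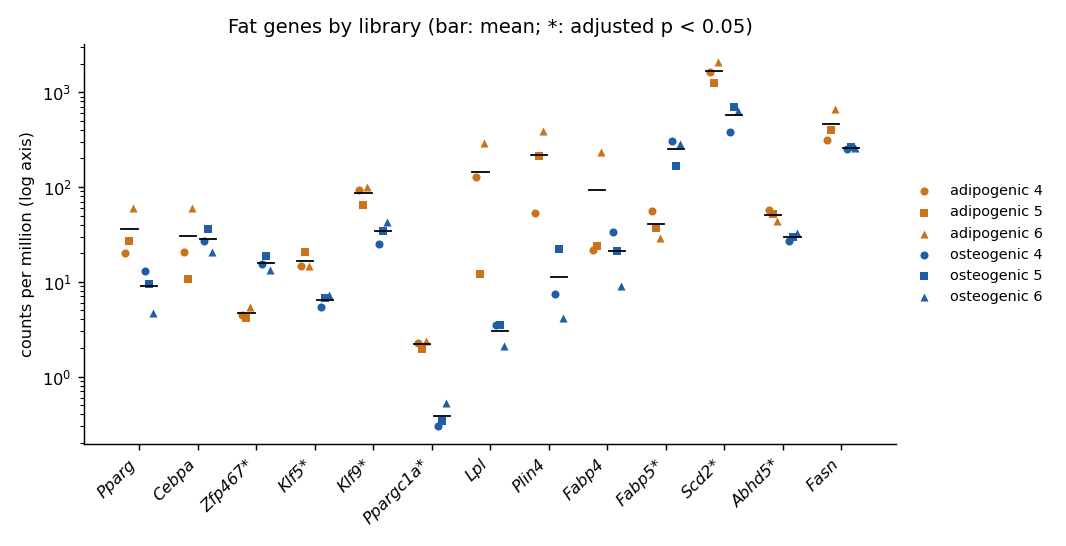
CPM of 13 genes of fat formation and lipid handling in each library, on a log axis, drawn as for the bone genes. Lpl, Plin4 and Fabp4 spread 23.8, 7.48 and 10.9-fold among the adipogenic libraries, while Klf5, Klf9, Abhd5 and Ppargc1a form narrow groups that do not overlap.

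The list with the largest share of calls was lower in the osteogenic cells: 28 of 34 interferon-stimulated genes fell (82.35%, against 2.24% of all genes) and 0 rose. All 34 values were below 0 and no gene of the list overlapped between the groups. Over all genes, 16% were lower without overlap. The median log2 fold change was −3.21. All libraries here were untreated, so these are levels without added IFNγ.

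The promoters of 3 of these genes are shown because they carry the sequence that interferon-activated factors are known to bind. Each is the 250 bases before the transcription start in RefSeq (GRCm38.p6), written 5′ to 3′ on the gene's strand, with matches to GAAANNGAAA on either strand in capitals. They lie at chr19:34640639-34640888 (plus strand, Ifit1), chr4:156200819-156201068 (minus strand, Isg15) and chr8:71537473-71537722 (minus strand, Bst2).
Ifit1: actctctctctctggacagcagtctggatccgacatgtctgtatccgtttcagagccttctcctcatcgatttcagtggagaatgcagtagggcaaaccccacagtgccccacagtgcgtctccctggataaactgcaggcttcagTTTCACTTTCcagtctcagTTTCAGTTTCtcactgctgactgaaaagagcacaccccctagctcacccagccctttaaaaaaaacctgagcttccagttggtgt
Isg15: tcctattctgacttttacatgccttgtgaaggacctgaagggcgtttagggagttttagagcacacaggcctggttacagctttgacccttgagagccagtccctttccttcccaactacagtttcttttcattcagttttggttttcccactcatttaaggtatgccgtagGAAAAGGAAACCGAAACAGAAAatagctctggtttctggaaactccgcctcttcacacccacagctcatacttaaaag
Bst2: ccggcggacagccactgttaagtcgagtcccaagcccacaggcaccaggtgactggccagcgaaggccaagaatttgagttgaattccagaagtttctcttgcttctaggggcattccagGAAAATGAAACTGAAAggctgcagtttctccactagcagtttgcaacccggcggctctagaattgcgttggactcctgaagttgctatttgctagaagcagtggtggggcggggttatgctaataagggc
The matches begin 104 and 85 bases before the start in Ifit1, 78, 72 and 66 bases before it in Isg15, and 130 and 124 bases before it in Bst2. Within Isg15 and within Bst2 they overlap. In windows from 250 bases before to 50 after the start, a match on either strand was found in 12 of the 22 lower interferon-stimulated genes with a sequence (54.5%). The motif was in 45 of 225 genes that fell (20%), 4 of 132 that rose (3.0%) and 345 of 9236 tested genes with a sequence (3.7%). Among all 32851 windows of the table it was in 3.4%. Of the MHC class I genes that fell, 1 of the 6 with a sequence held it (16.7%). The core motif of RUNX factors, TGTGGT on either strand, was in 16 of 132 genes that rose (12.1%), 41 of 225 that fell (18.2%) and 1377 of the 9236 tested (14.9%). A match describes these letters only and is not evidence of binding.

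Usp18, which removes ISG15 from proteins and dampens interferon signalling, was at 72.1, 87.7 and 93.8 CPM in adipogenic and 1.92, 1.01 and 1.36 CPM in osteogenic libraries. The groups differed 58.7-fold, against a spread of 1.3-fold among adipogenic and 1.9-fold among osteogenic libraries (log2 −5.88 ± 0.28, adjusted p = 0.00251). Ifit1, an RNA-binding antiviral protein, was at 198, 149 and 215 and 5.24, 2.95 and 4.89 CPM (42.8-fold, log2 −5.42 ± 0.30, adjusted p = 0.00312). Bst2, tetherin, which holds budding virus at the cell surface, was at 385, 314 and 463 and 15.9, 20.6 and 17.4 CPM (21.6-fold, log2 −4.43 ± 0.21, adjusted p = 0.00251).

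Isg15, the ubiquitin-like protein that Usp18 removes, was at 111, 211 and 249.8 CPM in adipogenic and 8.87, 6.19 and 7.39 CPM in osteogenic libraries (log2 −4.67 ± 0.36, adjusted p = 0.00601). Mx2, a dynamin-like antiviral GTPase, was at 14.6, 7.91 and 12.7 and 0.569, 0.336 and 0.445 CPM (log2 −4.69 ± 0.37, adjusted p = 0.00601). Oas1a, which makes the activator of RNase L, had the largest of the 10 falls that the rule names by size, from 24, 11 and 51.6 to 0.509, 0.261 and 0.389 CPM (log2 −6.20 ± 0.70, adjusted p = 0.015). Ifit3 fell from 267, 77.7 and 241 to 4.07, 3.28 and 3.56 CPM (log2 −5.74 ± 0.54, adjusted p = 0.00885), and the helicase gene Ddx60, which is in no list, fell 26.3-fold (adjusted p = 0.0109). Ifit, Oas and Mx genes have near-identical family members, and how reads common to them were counted is not known, which makes the level of any 1 member uncertain.

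Factors that carry the interferon signal were among the genes that fell. Irf7, which amplifies type I interferon responses, was at 69.6, 55 and 101 CPM and 4.61, 2.99 and 3.28 CPM (20.6-fold, log2 −4.37 ± 0.31, adjusted p = 0.00544). Stat2 and Irf9, named after their values were seen, fell 5.15-fold and 4.22-fold (adjusted p = 0.00601 and 0.00674). Irf1, which did not pass, averaged 53.3 ± 9.77 and 40.9 ± 5.03 CPM (adjusted p = 0.25). Of the effector genes, Irgm1, a GTPase that acts on bacteria within cells, averaged 529.9 ± 172 and 213 ± 30.1 CPM without overlap and did not pass (adjusted p = 0.0578).

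The interferon receptor genes, also chosen after their values were seen, did not pass. Ifnar1 averaged 80.4 ± 16.8 and 104 ± 9.46 CPM and Ifnar2 41.5 ± 11 and 52.1 ± 3.15, both overlapping (adjusted p = 0.271 and 0.364). Ifngr1 averaged 89.8 ± 42.2 and 59.2 ± 7.41 CPM and Ifngr2 127 ± 18.8 and 108 ± 3.56 (adjusted p = 0.314 and 0.35). Of the interferon-stimulated list, the number that fell was 27, 31 and 23 without adipogenic library 4, 5 or 6 and 7, 11 and 11 without osteogenic library 4, 5 or 6. Over all genes tested, the numbers that fell in the same fits were 380, 349 and 111 and 13, 28 and 35. The calls of Usp18, Ifit1, Bst2, Isg15, Mx2, Irf7 and Stat2 held with each of the 6 libraries left out in turn. Leaving out a library took the adjusted p past 0.05 for Oas1a and Ifit3 without any 1 osteogenic library (adjusted p = 0.0613 to 0.0805), Ddx60 without osteogenic library 4 or 5 (0.0617 to 0.062) and Irf9 without osteogenic library 4 (0.0514).

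**Figure D4:**
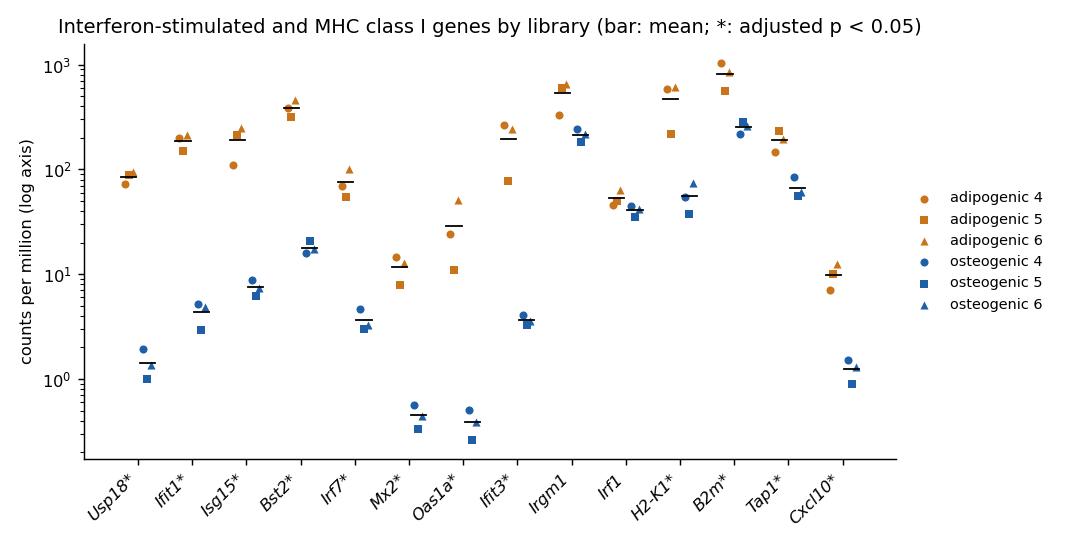
CPM of 14 interferon-stimulated, MHC class I and chemokine genes in each library, on a log axis, drawn as for the bone genes. Every osteogenic value of each gene lies below every adipogenic one, by a wide margin for Usp18 and Bst2 and a narrow one for Irf1.

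Genes for antigen presentation by MHC class I were lower as well. Of 18 tested, 8 fell (44.4%, against 2.24% of all genes) and 0 rose, all 18 values were below 0 and the median was −1.54. The class I chain H2-K1 was at 579.8, 219.6 and 609.7 CPM in the adipogenic and 54.4, 37.8 and 74.6 CPM in the osteogenic libraries. The chain H2-D1 was at 699, 295 and 809.9 and 133, 97.7 and 130.3 CPM. Adipogenic library 5 was the lowest of its group for both, and still above every osteogenic library. H2-K1 fell 8.44-fold (log2 −3.08 ± 0.47, adjusted p = 0.0271) and H2-D1 5-fold (log2 −2.32 ± 0.39, adjusted p = 0.0361).

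B2m, the light chain common to class I molecules, fell 3.21-fold, from 1039, 555 and 857 to 219, 286 and 259.7 CPM (log2 −1.68 ± 0.26, adjusted p = 0.0274). Tap1, a subunit of the transporter for the peptides that class I presents, fell 2.88-fold, from 193 ± 44.8 to 66.8 ± 15.1 CPM (adjusted p = 0.029). The immunoproteasome subunit Psmb9 fell 8.2-fold, from 15.5 ± 7.21 to 1.88 ± 0.679 CPM (adjusted p = 0.0245). AI451557 (Nlrc5), the transactivator of class I genes, was at 47.4, 63 and 73.8 and 9.35, 9.85 and 8.37 CPM (6.68-fold, log2 −2.74 ± 0.20, adjusted p = 0.00544). The class I gene listed as H2-gs10 was at 106, 20.4 and 114 and 5.06, 1.16 and 2.22 CPM (adjusted p = 0.0417). Class I genes are near-identical in sequence, so the share of each chain is uncertain. The call of AI451557 held with each of the 6 libraries left out in turn. The threshold was no longer met for H2-K1, B2m, Tap1 and Psmb9 without adipogenic library 6 or any 1 osteogenic library (adjusted p = 0.052 to 0.121) and H2-D1 and H2-gs10 without adipogenic library 4 or 6 or any 1 osteogenic library (0.0599 to 0.15). A change of scaling, filter, tool or set of libraries ended the call, with the adjusted p, for H2-gs10 with no filter on low counts (0.054) and limma-voom (0.0783).

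Chemokines and cytokines held 1 rise and 1 fall among 22 (4.55% each, against 1.35% and 2.24% of all genes). Cxcl10, which interferon induces and which attracts T cells, was at 7.06, 10.1 and 12.6 CPM in adipogenic and 1.53, 0.896 and 1.31 CPM in osteogenic libraries (7.91-fold lower, log2 −2.98 ± 0.34, adjusted p = 0.014). Cxcl14 had 2 reads in the adipogenic and 334 in the osteogenic libraries, a ratio of 194 (95% exact interval 53.2 to 1610, counting error only, adjusted p = 0.0241). Its osteogenic values ran from 0.97 to 5.7 CPM. Among complement genes, C1qtnf6 rose 2.32-fold, from 61.3 ± 17.3 to 142 ± 12.3 CPM (adjusted p = 0.0427), the 1 rise among 12 (8.33%, against 1.35% of all genes).

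Of 21 genes of the marrow niche, 1 passed, Tgfb1, which was higher (4.76%, against 1.35% of all genes). Cxcl12, which retains blood stem cells in the marrow, was at 3518, 772 and 3161 CPM in adipogenic and 933, 1295 and 1380.4 CPM in osteogenic libraries. The groups overlapped through adipogenic library 5 (log2 −1.05 ± 0.54, adjusted p = 0.295), and without that library the adjusted p was 0.0368. Kitl, stem cell factor, averaged 59.7 ± 39 and 41.8 ± 33.1 CPM (adjusted p = 0.703), and Csf1, the growth factor of macrophages and osteoclasts, 911 ± 121 and 1124 ± 89.7 CPM (adjusted p = 0.312). Lepr, which marks stromal cells of the adult marrow, was close to the floor in both, at 0.168, 0.422 and 0.0746 and 0.419, 0.336 and 0.361 CPM.

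No stromal surface marker passed with edgeR among 25 tested. At an unadjusted p under 0.05 the number was 10, against 23.9% of all genes. Pdgfra averaged 18.7 ± 10.3 and 29.2 ± 5.56 CPM (adjusted p = 0.441) and Ly6a (Sca-1) 99 ± 36.4 and 39.4 ± 13.2 CPM without overlap (adjusted p = 0.0965). The integrin Itgb1 averaged 1575 ± 165 and 1759 ± 68.8 CPM (adjusted p = 0.575), and the collagen receptor Itga11 202 ± 140.3 and 703 ± 58.9 CPM (adjusted p = 0.174). Thy1, a usual stromal marker, had 1 read in all 6 libraries. The call was missed for Cxcl10 without any 1 osteogenic library (adjusted p = 0.0645 to 0.0759), Cxcl14 without adipogenic library 5 or 6 or osteogenic library 4 or 6 (0.0511 to 0.0935) and C1qtnf6 without adipogenic library 4 or any 1 osteogenic library (0.0748 to 0.143). A call also ended, with this adjusted p, for C1qtnf6 with scaling by library totals alone (0.0534) and all 9 libraries in the fit (0.0508).

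Hox genes, which record position along the body and the limbs, had a median of −0.48. Among 30 tested there were 3 falls (10%, against 2.24% of all genes) and 0 rises. Both tested genes of cluster D fell, and the other 5 found in the table were too low to test. Hoxd8 was at 12.1, 2.65 and 7.18 CPM in adipogenic and 0.18, 0.149 and 0.25 CPM in osteogenic libraries, 815 reads against 19 (ratio 37, 95% exact interval 23.5 to 61.8, counting error only, adjusted p = 0.0207). Hoxd9 had 536 reads against 1 (ratio 462, interval 82.6 to 18300, counting error only, adjusted p = 0.0207). Hoxb7 fell 4.36-fold, from 9.75, 12.2 and 15.8 to 1.68, 2.5 and 4.45 CPM (log2 −2.13 ± 0.41, adjusted p = 0.0478). None of the 10 tested genes of cluster A or the 9 of cluster C passed, and Hoxc13 averaged 66.2 ± 29.2 and 66.9 ± 14.6 CPM (adjusted p = 0.984).

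Other patterning factors held 2 rises and 1 fall among 34 (5.88% and 2.94%, against 1.35% and 2.24% of all genes). Prrx2, a homeobox gene of limb and skull mesenchyme, was at 12.7, 27.1 and 24.2 CPM and 175, 167 and 190.1 CPM, 8.3-fold higher in the osteogenic libraries (log2 3.05 ± 0.30, adjusted p = 0.0109). Its relative Prrx1 averaged 217 ± 96.6 and 368 ± 170.1 CPM and overlapped (adjusted p = 0.364). Nr2f2 (COUP-TFII), a nuclear receptor of mesenchyme, fell 1.9-fold, from 33.2 ± 5.59 to 17.4 ± 0.795 CPM (adjusted p = 0.0387). Among 14 imprinted genes, 1 rose (7.14%, against 1.35% of all genes). This was the paternally expressed Mest, which rose 14-fold, from 12.2, 1.6 and 8.67 to 108, 73.8 and 133 CPM (log2 3.81 ± 0.71, adjusted p = 0.0464). Dlk1, which restrains fat formation, was near the floor in some libraries of both groups, at 1.71, 0.0282 and 0.671 and 0.33, 2.76 and 0.584 CPM. Leaving out a library took the adjusted p past 0.05 for Hoxd8 and Hoxd9 without adipogenic library 6 or any 1 osteogenic library (adjusted p = 0.0508 to 0.101), Hoxb7 without any 1 adipogenic library or any 1 osteogenic library (0.0579 to 0.165) and Prrx2 without any 1 osteogenic library (0.0538 to 0.0691). The call was also lost for Nr2f2 and Mest without adipogenic library 4 or 6 or any 1 osteogenic library (adjusted p = 0.0535 to 0.142). Among the other scalings, filter, tools and the fit of all 9 libraries, the threshold was missed for Mest with no filter on low counts (0.0622) and all 9 libraries in the fit (0.055).

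Cartilage and tendon regulators each gave 1 rise, among 4 and 2 tested (against 1.35% of all genes). Sox6, a partner of Sox9 in cartilage, had 6 reads in the adipogenic and 215 in the osteogenic libraries (ratio 41.6, 95% exact interval 18.8 to 114, counting error only, adjusted p = 0.0437), at no more than 3.56 CPM. Sox9 itself averaged 17.1 ± 5.77 and 20.2 ± 5.06 CPM (adjusted p = 0.676). Sox5 was at 3.61, 5.01 and 10.5 CPM in adipogenic and 2.43, 0.746 and 0.5 CPM in osteogenic libraries. It was lower without overlap and did not pass (log2 −2.37 ± 0.72, adjusted p = 0.12). Of the 4 cartilage regulators 2 had values above 0 and 2 below, and of 9 tested matrix genes 6 and 3. Acan, aggrecan, had 0 reads in the adipogenic and 20 in the osteogenic libraries and was not tested. The pooled reads were at least 7.73-fold higher against a floor of 3 reads over the group. Most came from osteogenic library 5, as libraries 4, 5 and 6 were at 0.0599, 0.597 and 0.0556 CPM. Col11a1, a fibrillar chain of cartilage and bone, averaged 124 ± 46 and 627 ± 347 CPM without overlap (adjusted p = 0.0699). Scx, the tendon factor scleraxis, rose 4.3-fold, from 16.8, 21.9 and 8.52 to 65, 53.3 and 84.9 CPM (log2 2.11 ± 0.37, adjusted p = 0.0406).

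Contractile genes had 2 rises among 17 (11.76%, against 1.35% of all genes) and a median of 0.95. Smtn, smoothelin, rose 2.55-fold, from 90.4, 69 and 55 to 162, 189 and 196 CPM (log2 1.35 ± 0.20, adjusted p = 0.0263), and Lmod1, which nucleates actin filaments in smooth muscle, 2.68-fold, from 60.5 ± 6.66 to 162 ± 58.2 CPM (adjusted p = 0.0489). Acta2 and Tagln, the usual markers of contractile cells, lay higher in all osteogenic libraries without passing. Acta2 averaged 2649.9 ± 923 and 8223 ± 3817 CPM (adjusted p = 0.0955) and Tagln 673 ± 334 and 2460.4 ± 1322 CPM (adjusted p = 0.0995).

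Guidance genes had 2 rises and 1 fall among 37 (5.41% and 2.7%, against 1.35% and 2.24% of all genes). Sema5a, a semaphorin, fell 5.76-fold, from 26.9, 23.9 and 20.4 to 4.61, 4.29 and 3.45 CPM, with tight groups (log2 −2.52 ± 0.20, adjusted p = 0.00607). The semaphorin and VEGF co-receptor Nrp2 rose 3.23-fold, from 157 ± 20.1 to 508 ± 155 CPM (adjusted p = 0.0284), and the ephrin receptor Ephb3 3.07-fold, from 22.6 ± 5.57 to 69.4 ± 5.39 CPM (adjusted p = 0.0207). The call of Sema5a held with each of the 6 libraries left out in turn. The threshold was no longer met for Sox6 and Lmod1 without any 1 adipogenic library or any 1 osteogenic library (adjusted p = 0.0563 to 0.143), Scx without adipogenic library 4 or 6 or any 1 osteogenic library (0.0532 to 0.13) and Smtn without adipogenic library 5 or 6 or any 1 osteogenic library (0.0565 to 0.107). The call was also lost for Nrp2 without any 1 adipogenic library or osteogenic library 4 or 6 (adjusted p = 0.0555 to 0.111) and Ephb3 without any 1 osteogenic library (0.0804 to 0.0873). A change of scaling, filter, tool or set of libraries ended the call, with the adjusted p, for Sox6 with limma-voom (0.0652), Scx with all 9 libraries in the fit (0.0525), and Lmod1 with DESeq2 size factors (0.05), limma-voom (0.0521) and all 9 libraries in the fit (0.0689).

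Metabolic and growth genes showed little that passed. Hk2, the hexokinase that starts glycolysis, fell 2.19-fold, from 81.4, 64.7 and 64.2 to 29.8, 31 and 35.3 CPM (log2 −1.13 ± 0.15, adjusted p = 0.0207). It passed alone among 27 genes of glycolysis and hypoxia (3.7%, against 2.24% of all genes that fell). Cholesterol genes had a median of −0.88 and 19 of 21 values below 0, and 1 of 21 fell past the threshold (4.76%, against 2.24% of all genes). The enzyme Mvd fell 3.29-fold, from 54.8, 54.7 and 108 to 20.7, 22.6 and 22.8 CPM (log2 −1.72 ± 0.29, adjusted p = 0.0379), and Insig1, which holds the pathway's control factor in the reticulum, averaged 157 ± 80.3 and 40.7 ± 14.5 CPM without overlap (adjusted p = 0.0608). With DESeq2, 7 cholesterol genes were lower (against 7.97% of all genes).

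With edgeR 0 of 39 S and G2/M phase genes passed, with a median of 0.57, and 10 had an unadjusted p under 0.05 (against 23.9% of all genes). All 22 G2/M genes had values above 0 (median 0.82), while 11 of 17 S phase genes had values below 0 (median −0.07). With DESeq2, 3 were higher and 1 lower (against 5.75% and 7.97% of all genes). Of 22 CDK inhibitors and p53 targets 0 passed, with a median of −0.32 and 6 at an unadjusted p under 0.05 (against 23.9% of all genes). DESeq2 called 2 of them lower (against 7.97% of all genes). Cdkn1a (p21) averaged 1096 ± 303 and 884 ± 139.9 CPM (adjusted p = 0.482) and Cdkn2a 714 ± 143 and 624 ± 199 CPM (adjusted p = 0.708). The call was missed for Hk2 and Mvd without any 1 osteogenic library (adjusted p = 0.0759 to 0.143).

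**Figure D5:**
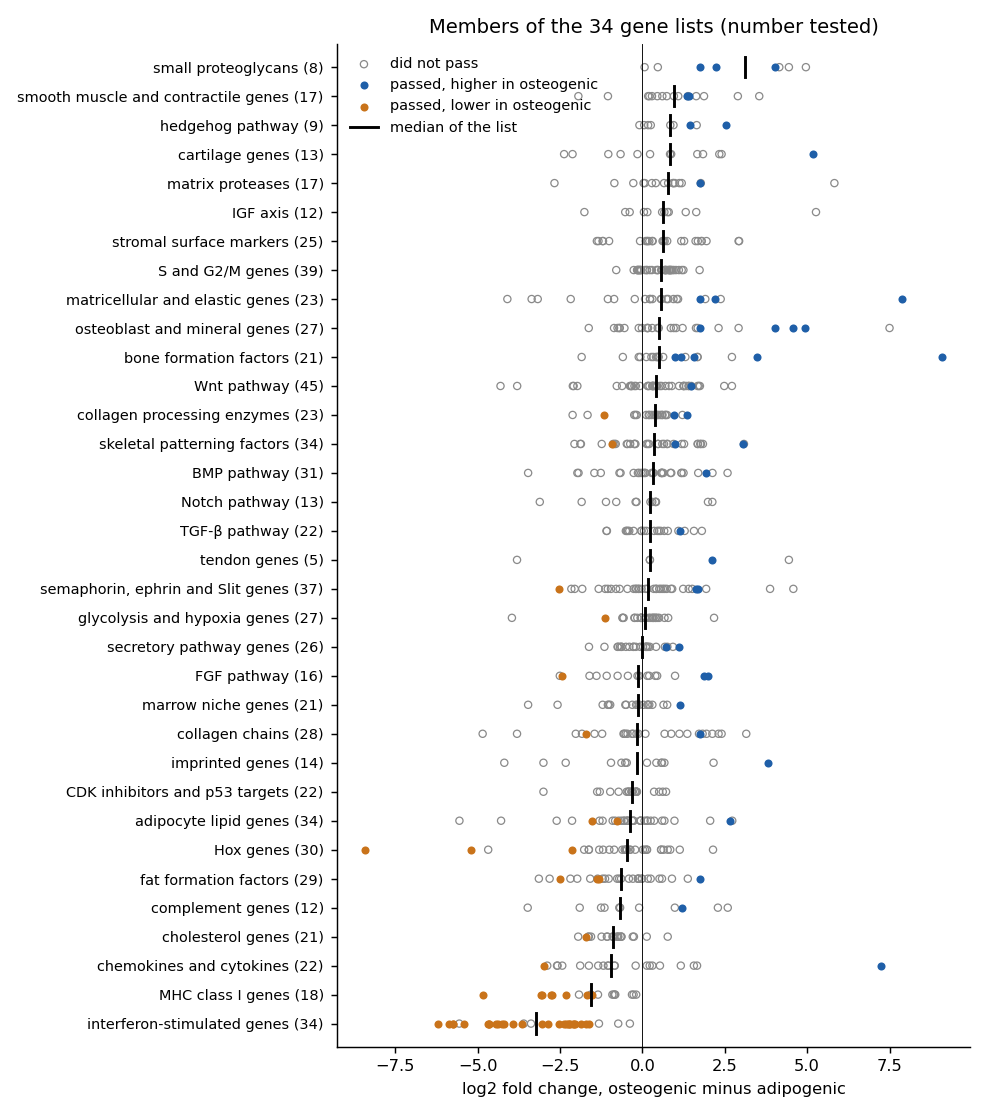
Log2 fold change (osteogenic minus adipogenic) of every tested member of the 34 lists, ordered by the list's median, with filled points for members that passed, open points for those that did not, and a bar at the median. The interferon-stimulated list (median −3.21) and the MHC class I list (−1.54) lie wholly left of 0, and the small proteoglycans (3.12) wholly right of it.

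Beyond the lists, 431 of the 523 called genes belonged to no list. The rule's largest rises included Megf6, a secreted protein with EGF repeats. It was at 7.62, 10.9 and 5.27 CPM in adipogenic and 504, 432 and 426 CPM in osteogenic libraries, and rose 57.4-fold with tight groups (log2 5.84 ± 0.32, adjusted p = 0.00312). The tetraspanin Tspan18 rose from 0.588, 0.253 and 0 to 18.2, 19.1 and 40.7 CPM (log2 6.54 ± 1.05, adjusted p = 0.0317) and Insc, a protein of cell division polarity, from 0.14, 0.338 and 0.0994 to 24.4, 40.7 and 4.89 CPM (log2 6.91 ± 0.99, adjusted p = 0.0241). Kctd12 and Kctd15, both of the KCTD family, rose 17.6-fold and 16-fold (adjusted p = 0.0263 and 0.0336). Lrp4, a receptor for the Wnt inhibitor sclerostin, and Cyp26b1, which breaks down retinoic acid, were picked after their values were seen. Lrp4 was at 9.44, 6.17 and 5.17 and 65, 69 and 58.7 CPM (9.28-fold, log2 3.21 ± 0.26, adjusted p = 0.00601) and Cyp26b1 at 5.27, 4.05 and 3.93 and 37.8, 31.3 and 29.4 CPM (7.43-fold, log2 2.89 ± 0.20, adjusted p = 0.00526). Among the largest falls outside the lists, Msln, a surface protein of mesothelial cells, went from 23, 105 and 49.1 to 1.26, 4.11 and 0.973 CPM (log2 −4.82 ± 0.82, adjusted p = 0.0379). The calls of Megf6, Lrp4 and Cyp26b1 held with each of the 6 libraries left out in turn. Leaving out a library took the adjusted p past 0.05 for Tspan18 without adipogenic library 5 or any 1 osteogenic library (adjusted p = 0.0625 to 0.109), Insc without adipogenic library 4 or 6 or osteogenic library 4 or 5 (0.0542 to 0.0935) and Kctd12 without adipogenic library 4 or any 1 osteogenic library (0.0565 to 0.0991). The call was also lost for Kctd15 and Msln without adipogenic library 5 or 6 or any 1 osteogenic library (adjusted p = 0.0512 to 0.143) and Kdr without adipogenic library 6 or any 1 osteogenic library (0.0538 to 0.103). A call also ended, with this adjusted p, for Insc with limma-voom (0.0862) and Msln with limma-voom (0.0512).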

How the data were processed

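The authors deposited a table of raw counts, 1 whole number of reads per Ensembl gene and library with no normalization, beside exon number and exonic length. Per the submitters' processing notes, CASAVA 1.8.0 and bedtools 2.11 were used with build mm9 of the mouse. No aligner, counter or strand setting is named in the sources used here, so reads of overlapping, antisense or near-identical genes cannot be assigned with certainty.

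Only the 6 libraries compared were fitted, because adipogenic libraries with equal numbers deviated together whether treated or not (r = 0.791, 0.787 and 0.797). The fit used edgeR 4.0.16 in R 4.3.3 (filterByExpr with a minimum count of 10, TMM, robust quasi-likelihood, two-sided, Benjamini-Hochberg over 14564 genes, threshold 0.05). The SE is the log2 fold change over the square root of F, n = 3 per group throughout, and ± after a CPM is the SD. RPKM was taken from TMM-scaled libraries and exonic length. The biological coefficient of variation was 0.349. On simulated counts with 2-fold, 4-fold and 8-fold changes the fit recovered 38.3%, 90.1% and 97.1%. The simulation gave each gene the trended dispersion, equal in both groups, and changed no gene of low level. Its recovery therefore does not hold for genes that vary more than the trend. No pair of libraries agreed within sampling noise (chi-square per degree of freedom of at least 66.54).

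The groups and the 34 gene lists were chosen with earlier results of these data known. Of 958 entries, the 7 marker lists included, 938 matched the table, 4 of them by identifier, and 144 of these were too low to test. The rule for named genes took the 10 largest rises and falls among calls without overlap and with at least 10 CPM in the higher group, up to 6 members per list by adjusted p, up to 3 by level, and a set of usual bone, fat and stromal genes. Some members that the rule names are counted in their lists and not reported here by name. Alternatives were DESeq2 1.42.0, limma-voom (limma 3.58.1), other scalings, no filter, all 9 libraries, a replicate block and each library left out. Promoter sequences are from RefSeq (GRCm38.p6).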

Additional observations from a re-analysis of the deposited data

How the results depend on the processing

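DESeq2 called 909 genes higher and 1260 lower (1249 calls past 2-fold), including all 523 calls of edgeR. A fit of all 9 libraries called 299 higher and 481 lower. Leaving out 1 library at a time gave 12 to 204 genes higher, 13 to 380 lower and 25 to 457 past 2-fold. A replicate block by library number left 9 higher and 14 lower, all 23 past 2-fold, of which 21 were calls without the block, and ended 67 of the 80 calls named in the text. Among the calls it ended were Dlx5 (adjusted p = 0.0552), Isg15 and Stat2 (0.0604) and AI451557 (0.0562), which held with each library left out. Deviations of osteogenic and adipogenic libraries of the same number correlated at −0.056, −0.118 and −0.069. Those of different numbers correlated at −0.114 to 0.172. These values showed no pairing across genes, but they cannot tell whether equal numbers mark a shared source. Reads of Hoxa11, given below, were highest in the library numbered 5 of every kind. DESeq2 size factors, upper-quartile scaling and no filter gave 514, 527 and 472 calls, and limma-voom 495. Of the 80 called genes named in the text, all passed with DESeq2, 71 passed with limma-voom, and 15 passed with every library left out in turn. None of the 80 changed direction in any setting. Flt1, Col5a3, Col24a1, Mgll and Sox5 were left out of the next counts. Of the 55 other named genes that did not pass, 28 passed with DESeq2 and 14 in a fit without 1 library. These were Serpinh1, Fmod, Postn, Plin4 and Irgm1 without adipogenic library 4 (adjusted p = 0.0244 to 0.0469), Col5a2, Aspn, Lpl, Cxcl12 and Ly6a without adipogenic library 5 (0.0111 to 0.0477), Id3, Smad6 and Itga11 without adipogenic library 6 (0.0352 to 0.0396) and Ibsp without osteogenic library 6 (0.0399). Among the 55, 8 turned sign. Cebpa was at 0.158 with limma-voom, 0.208 with the block and −0.543 to 0.825 with a library left out. With a library left out, log2 fold changes ran from −0.303 to 0.658 for Spp1, −1.591 to 0.575 for Hspa5, −0.801 to 1.769 for Dlk1, −1.35 to 0.127 for Kitl, −0.07 to 0.288 for Bgn, −0.205 to 0.432 for Hoxc13 and −0.006 to 0.56 for Atf4. With library totals alone, Bgn was at −0.045 and Hoxc13 at −0.092. With 3 libraries a group, the fit missed most simulated 2-fold changes, so a gene that did not pass may still differ. Larger differences were missed too where libraries spread widely, such as 46.9-fold for Lpl and 31.1-fold for Aspn.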

Other observations

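Of the Y-linked genes, Ddx3y had 4 reads in adipogenic library 4 and 14 in the IFNγ-treated library of the same number. In the other 7 libraries it had 1863 to 3046 reads. Uty, also Y-linked, had 443 to 977 reads in all 9. Hoxa11, a limb patterning gene, had 267, 199 and 316 reads in the untreated adipogenic, treated adipogenic and osteogenic libraries numbered 5, and 2 to 9 reads in the other 6. These values were picked after the table was seen and were not tested.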
